A study of Homo sapiens with 64 samples.

Results

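The genes described here are ADRB1, GNAS, GRK2, GRK5, GRK6, ARRB1 and ARRB2, which encode a beta-adrenoceptor, the G protein subunit it couples to, kinases that phosphorylate the active receptor, and the arrestins that bind it afterwards. They were chosen by gene symbol and not by a rule on measured values, but with earlier results of these data known. Of the 7, 6 had a probe set with that symbol, among 18132 genes measured. No probe set carried the symbol ARRB2 in the annotation used, so that gene was not analysed here. Where a gene had several probe sets, the one with the highest average over all 64 arrays stood for it.

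BEAS-2B, a single immortalised line of human bronchial epithelial cells, was kept in serum-free medium overnight and then treated. The treatments were 100 nM budesonide, a glucocorticoid, 10 nM formoterol, a long-acting beta-adrenoceptor agonist, or both drugs together at those doses, called the combination below, and untreated cells were collected at the same times. RNA was taken at 1, 2, 6 and 18 h and hybridised to arrays, with 4 independent determinations in each of the 16 groups. Values are log2 expression, differences are on that scale unless given as a percent, and a percent of untreated is the same difference on the linear scale. A difference was called where its Benjamini-Hochberg adjusted p over all genes was under 0.05.

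A beta-adrenoceptor that has bound its agonist activates the stimulatory G protein, whose alpha subunit switches on adenylyl cyclase and raises cyclic AMP, which relaxes airway smooth muscle and changes transcription in epithelial cells. G protein-coupled receptor kinases then phosphorylate the occupied receptor, and beta-arrestins bind to the phosphorylated tail, block further coupling and link the receptor to clathrin for internalisation. These steps are known as desensitisation, and they are studied in the airway because long-acting agonists are inhaled together with glucocorticoids. Which receptor formoterol acted through in these cells was not tested.

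The promoters of ADRB1 and GRK5 are shown because these were the members that passed a test of treatment. They are the 250 bases before the annotated gene start in RefSeq, on build GRCh38.p14, both on the plus strand, at chr10:114043616-114043865 for ADRB1 and chr10:119207321-119207570 for GRK5. Capitals mark the letters that matched any of the motifs searched.
ADRB1: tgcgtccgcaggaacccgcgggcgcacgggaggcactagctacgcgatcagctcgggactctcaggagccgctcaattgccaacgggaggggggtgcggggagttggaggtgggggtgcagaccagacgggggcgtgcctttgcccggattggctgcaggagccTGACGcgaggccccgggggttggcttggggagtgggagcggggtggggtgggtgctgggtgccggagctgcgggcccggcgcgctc
GRK5: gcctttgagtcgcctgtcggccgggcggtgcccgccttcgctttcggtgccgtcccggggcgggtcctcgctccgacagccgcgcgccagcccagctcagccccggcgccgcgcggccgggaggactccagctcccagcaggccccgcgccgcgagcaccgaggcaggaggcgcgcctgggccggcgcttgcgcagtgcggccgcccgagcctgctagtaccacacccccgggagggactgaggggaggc
The motifs, searched on both strands, were the glucocorticoid response element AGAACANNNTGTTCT, its half-site AGAACA, the cyclic AMP response element TGACGTCA, its half-site TGACG, and the AP-1 site TGANTCA. The half-sites lie within their full elements. ADRB1 held 1 cyclic AMP half-site, which began 86 bases before the start, and GRK5 held no match to any of them. Of the 35116 promoter windows of this length in RefSeq, 21.2% held the cyclic AMP half-site, 12.4% the glucocorticoid half-site, 6.57% the AP-1 site, 1.65% the full cyclic AMP element and 0.00285% the full glucocorticoid element. Among the other members, GRK6 and ARRB2 each had 1 cyclic AMP half-site and GRK2 no match in its window. GNAS, with 6 windows, had 3 cyclic AMP half-sites and 1 AP-1 site in all. Both printed windows were rich in G and C, at 72.8% for ADRB1 and 78.4% for GRK5. A match is a run of letters and not a measured binding site.

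The drugs acted on these cells as judged by genes known to respond to each. TSC22D3, a glucocorticoid-induced leucine zipper protein, was 3.94 ± 0.11 higher on the log2 scale with budesonide than in untreated cells at 1 h (difference ± SE, limma adjusted p = 1.95e-37). NR4A1, an immediate early nuclear receptor, was 3.40 ± 0.31 higher with formoterol than in untreated cells at 1 h (limma adjusted p = 6.76e-13). It was no longer called with formoterol at 6 or 18 h, at -0.24 and -0.10. PDE4D, also checked for formoterol, was still 0.89 higher at 18 h (limma adjusted p = 1.74e-05). FKBP5, also checked for budesonide, was not called at 1 h, at 0.26 (limma adjusted p = 0.72), and was 2.72 higher at 18 h (limma adjusted p = 1.02e-29). Medians of single arrays ran from 4.87 to 4.95, and over all arrays and probe sets the median was 4.903. Of 9 epithelial markers 4 had a mean at or above that median, led by the keratins KRT18 at 10.97 and KRT8 at 9.18, whereas EPCAM at 2.50 and CDH1 at 4.25 were below it. Of 5 leukocyte markers 1 was at or above the median, CD68 at 5.75, and PTPRC was lowest at 1.97. All 5 endothelial markers were below the median, and 5 of 10 fibroblast and smooth muscle markers were at or above it, with VIM at 13.0. With the combination at 18 h against untreated cells 2 of the 9 epithelial markers were called higher and 3 lower, and of the 10 fibroblast and smooth muscle markers 2 were called higher and 2 lower, against 10.3% of all genes higher and 10.7% lower. Their part in the results below was not tested.

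The members differed widely in how much their group means moved. GNAS lay between 12.47 and 12.70 over the 16 group means, GRK6 between 6.51 and 6.80, GRK2 between 4.95 and 5.19, and ARRB1 between 3.16 and 3.42. GRK5 spanned 5.42 to 6.21, and ADRB1 spanned 3.97 to 5.29. Values of different probe sets are not comparable as levels, and these ranges are given to show the spread within each gene. ARRB1 read between 2.95 and 3.76 on single arrays, below the median of all values and around or above their lower quartile of 3.02. Control probe sets with no human target rise with the number of G and C bases in their probes. Their means were 3.83 at 18 such bases and 5.34 at 21, a range that holds every group mean of ADRB1 and GRK2. They were 2.76 at 16 bases, below the group means of ARRB1, 3.21 at 17, within their range, and 3.83 at 18, above them. They rose further to 6.64 at 23 bases and 7.09 at 24, above the group means of GRK5 and GRK6. Only GNAS lay above the highest control mean, 9.12 at 25 bases. The group means of any such control differed by at most 0.38.

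ADRB1, which encodes the beta-1 adrenoceptor, was below untreated cells by 18 h with budesonide and the combination, and less firmly so with formoterol. Its lowest mean was with the combination. At 18 h the combination arrays read 3.91, 3.85, 3.996 and 4.13 for ADRB1, the budesonide arrays 4.49, 4.34, 4.39 and 4.42, the formoterol arrays 5.18, 4.86, 4.84 and 4.44, and the untreated arrays 5.24, 5.37, 5.29 and 5.29. All 12 treated arrays lay below all 4 untreated ones, and the formoterol arrays were the most widely spread. ADRB1 averaged 3.97 ± 0.12 with the combination and 5.29 ± 0.05 in untreated cells (SD, n = 4 each), a difference of -1.32 ± 0.13, or 39.9% of the untreated level (limma adjusted p = 3.41e-13). With budesonide alone ADRB1 differed by -0.89 ± 0.13, or 54.1% of untreated (limma adjusted p = 8.46e-08). With formoterol alone it differed by -0.47 ± 0.13, or 72.4% of untreated (limma adjusted p = 0.0485). These percents are ratios of array signal, no detection call was used, and the combination mean of 3.97 was not shown to lie above background. The formoterol call was lost when any 1 of 7 of the 8 compared arrays was left out. These were all 4 untreated arrays and formoterol replicates 2, 3 and 4, with differences between -0.58 and -0.34 and an adjusted p of up to 0.5. Over all 72 alternative fits that tested it, the formoterol call was lost in 41. ADRB1 averaged 4.83 with formoterol at both 6 and 18 h, while untreated cells averaged 4.98 at 6 h and 5.29 at 18 h. The combination and budesonide calls at 18 h held without each compared array, with differences of -1.38 to -1.28 for the combination and -0.91 to -0.86 for budesonide.

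**Figure D1:**
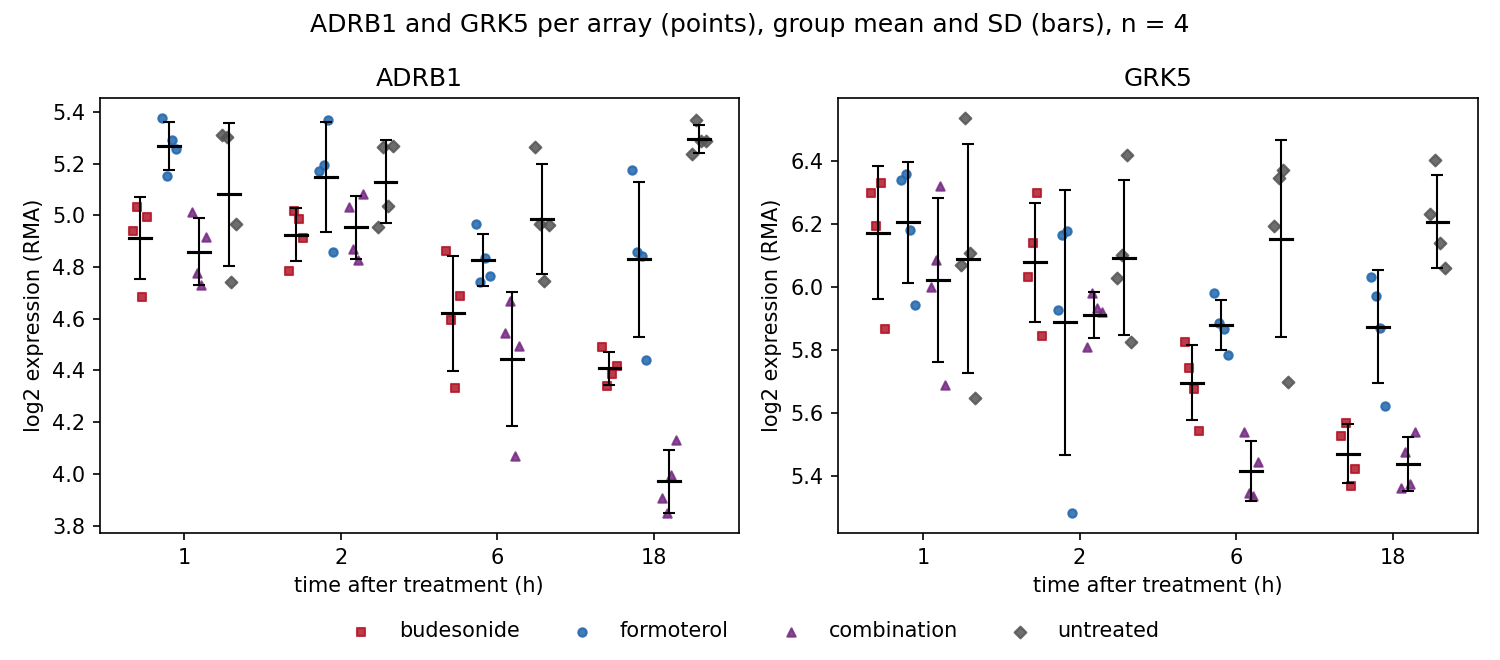
Log2 expression of ADRB1 and GRK5 on each array against time after treatment in hours, with points for single arrays, horizontal bars for group means and vertical bars for the SD of 4 arrays. At each time budesonide, formoterol and the combination stand left of untreated cells, and ADRB1 at 18 h is at 3.97 with the combination and 5.29 in untreated cells.

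At 6 h ADRB1 was already lower with budesonide and with the combination. It read 4.55, 4.67, 4.07 and 4.49 on the combination arrays, 4.86, 4.60, 4.33 and 4.69 on the budesonide arrays, and 5.26, 4.97, 4.75 and 4.96 on the untreated arrays. The combination arrays all lay below the untreated ones, while the budesonide and untreated arrays overlapped. ADRB1 differed by -0.54 ± 0.13 with the combination, or 68.8% of untreated (limma adjusted p = 0.000768). With budesonide it differed by -0.36 ± 0.13, or 77.7% of untreated (limma adjusted p = 0.041). That budesonide call at 6 h was lost without any 1 of untreated replicates 1, 2 and 4 or budesonide replicates 2, 3 and 4, with differences between -0.45 and -0.27 and an adjusted p of up to 0.225. Formoterol alone gave -0.16 at 6 h, with a 95% interval of -0.41 to 0.10 (limma adjusted p = 0.728). At 1 and 2 h none of the 3 treatments had an ADRB1 difference that passed the test, and the differences ran from -0.22 to 0.19.

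The group means of ADRB1 were also put in order over the 16 groups. Among the 15 pairs of neighbouring group means, 14 overlapped in their array values. The exception was the lowest group, the combination at 18 h, which lay wholly below budesonide at 18 h. That difference did not pass the test (limma adjusted p = 0.0973). Neighbours in an ordered list tend to overlap, and the share of such pairs over all genes was not counted. For each of the other 5 members all 15 neighbouring pairs overlapped.

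GNAS, which encodes the alpha subunit of the stimulatory G protein, passed the test in none of the 25 comparisons. Its differences from untreated cells ran from -0.05 to 0.11 over the 3 treatments and 4 times, and the 95% intervals of these 12 differences lay between -0.24 and 0.30. At 18 h GNAS averaged 12.60 ± 0.10 with the combination, 12.66 ± 0.08 with budesonide, 12.70 ± 0.11 with formoterol and 12.59 ± 0.12 in untreated cells (SD, n = 4 each). The groups overlapped at every time. All 5 GNAS probe sets had means between 11.18 and 12.57.

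GRK5, a receptor kinase that is held at the plasma membrane, fell with budesonide and with the combination. At 18 h GRK5 read 5.36, 5.48, 5.38 and 5.54 on the combination arrays, 5.53, 5.57, 5.37 and 5.42 on the budesonide arrays, 6.03, 5.97, 5.87 and 5.63 on the formoterol arrays, and 6.23, 6.40, 6.14 and 6.06 on the untreated arrays. The combination and budesonide arrays overlapped each other and lay below all formoterol and untreated arrays. The formoterol arrays lay below the untreated ones too, but by less. GRK5 averaged 5.44 ± 0.08 with the combination and 6.21 ± 0.15 in untreated cells (SD, n = 4 each), a difference of -0.77 ± 0.15, or 58.7% of untreated (limma adjusted p = 3.98e-05). With budesonide it differed by -0.74 ± 0.15, or 60.1% of untreated (limma adjusted p = 0.000101). With formoterol the GRK5 difference was -0.33, with a 95% interval of -0.63 to -0.04, and did not pass after adjustment over all genes (limma adjusted p = 0.365).

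At 6 h the GRK5 values were 5.54, 5.35, 5.34 and 5.45 on the combination arrays, 5.82, 5.74, 5.68 and 5.54 on the budesonide arrays, and 6.19, 6.35, 6.37 and 5.70 on the untreated arrays. Untreated replicate 4 was the low array of its group and overlapped the budesonide arrays, while all combination arrays lay below it. GRK5 differed by -0.74 ± 0.15 with the combination, or 60.1% of untreated (limma adjusted p = 8.95e-05). With budesonide the difference was -0.46 ± 0.15, or 72.9% of untreated (limma adjusted p = 0.0266). This last call was lost without any 1 of untreated replicates 1, 2 and 3 or budesonide replicates 3 and 4, with differences between -0.61 and -0.38 and an adjusted p of up to 0.122. At 1 and 2 h the GRK5 differences ran from -0.20 to 0.12, and none passed.

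Neither of the other kinases passed the test in any comparison. GRK2, which is recruited to the receptor by free G protein beta-gamma subunits, differed from untreated cells by -0.17 to 0.18 over the 12 comparisons, with 95% intervals between -0.44 and 0.45. GRK6, which is anchored to the membrane, differed by -0.11 to 0.06, with intervals between -0.38 and 0.33. At 18 h GRK6 averaged 6.51 ± 0.15 with the combination and 6.62 ± 0.16 in untreated cells, and GRK2 averaged 5.01 ± 0.18 with the combination and 5.00 ± 0.22 in untreated cells (SD, n = 4 each).

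ARRB1, the gene of beta-arrestin 1, passed in no comparison. It differed from untreated cells by -0.17 to 0.19, with 95% intervals between -0.44 and 0.46. At 18 h ARRB1 averaged 3.29 ± 0.26 with the combination, 3.36 ± 0.28 with budesonide, 3.20 ± 0.21 with formoterol and 3.18 ± 0.23 in untreated cells (SD, n = 4 each).

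**Figure D2:**
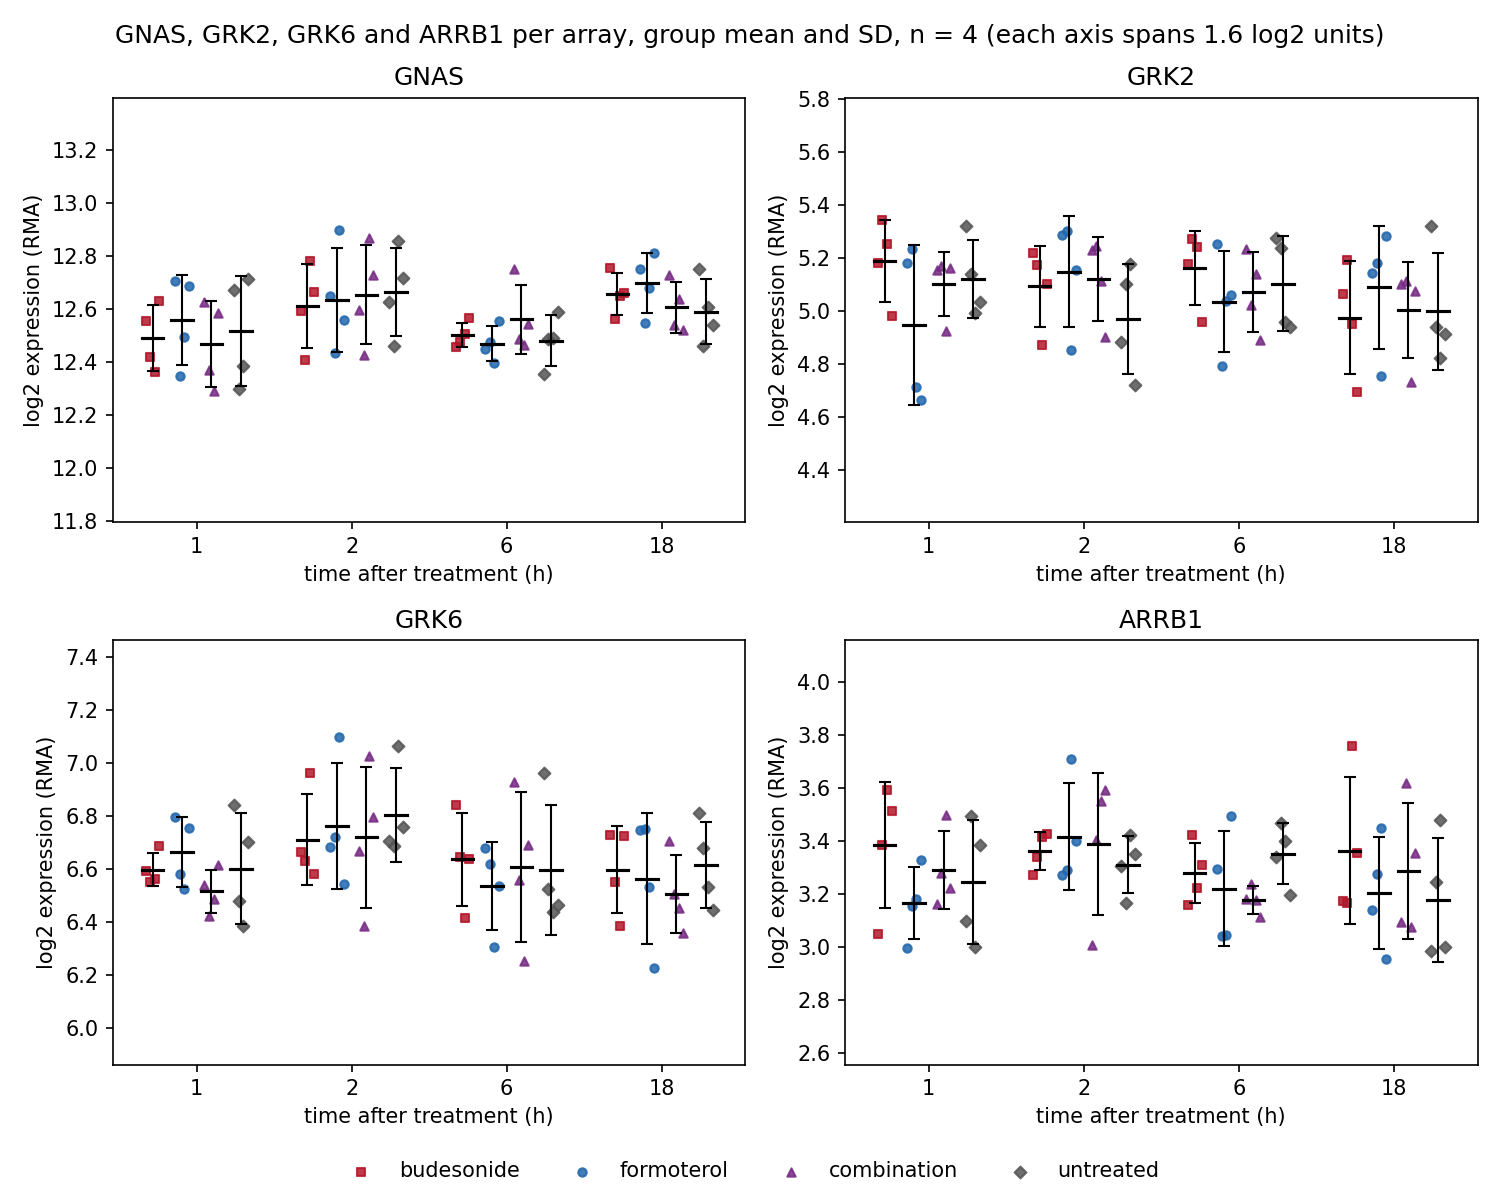
Log2 expression of GNAS, GRK2, GRK6 and ARRB1 on each array against time after treatment in hours, with points for single arrays, horizontal bars for group means and vertical bars for the SD of 4 arrays. Budesonide, formoterol and the combination stand left of untreated cells at each time, and the treated and untreated arrays overlap in every panel.

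Set against all genes, the member counts were as follows. At 1 h none of the 6 members was called with budesonide, where 0.667% of all genes were called higher and 0.331% lower, with formoterol, where 1.02% were called higher and 0.32% lower, or with the combination, where 1.63% were called higher and 1.13% lower. No member reached an unadjusted p under 0.05 in these comparisons at 1 h either. At 2 h again no member was called, nor reached an unadjusted p under 0.05, against 1.69% of genes higher and 2.26% lower with budesonide, 2.31% higher and 2.29% lower with formoterol, and 3.84% higher and 5.65% lower with the combination. At 6 h budesonide called 2 of 6 members lower and none higher, ADRB1 and GRK5, against 8.12% of genes lower and 6.12% higher. The combination at 6 h also called those 2 lower and none higher, against 9.95% of genes lower and 8.61% higher. Formoterol at 6 h called no member, against 2.06% of genes lower and 2.76% higher.

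At 18 h budesonide called ADRB1 and GRK5 lower and no member higher, against 9.78% of genes lower and 8.56% higher. The combination at 18 h called the same 2 lower and none higher, against 10.7% of genes lower and 10.3% higher. Formoterol at 18 h called ADRB1 lower and no member higher, against 0.64% of genes lower and 0.469% higher. With 6 members, 2 called is a small count, and the median difference of the members stayed near that of all genes, at -0.05 for the members and 0.03 for all genes with the combination at 18 h.

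**Figure D3:**
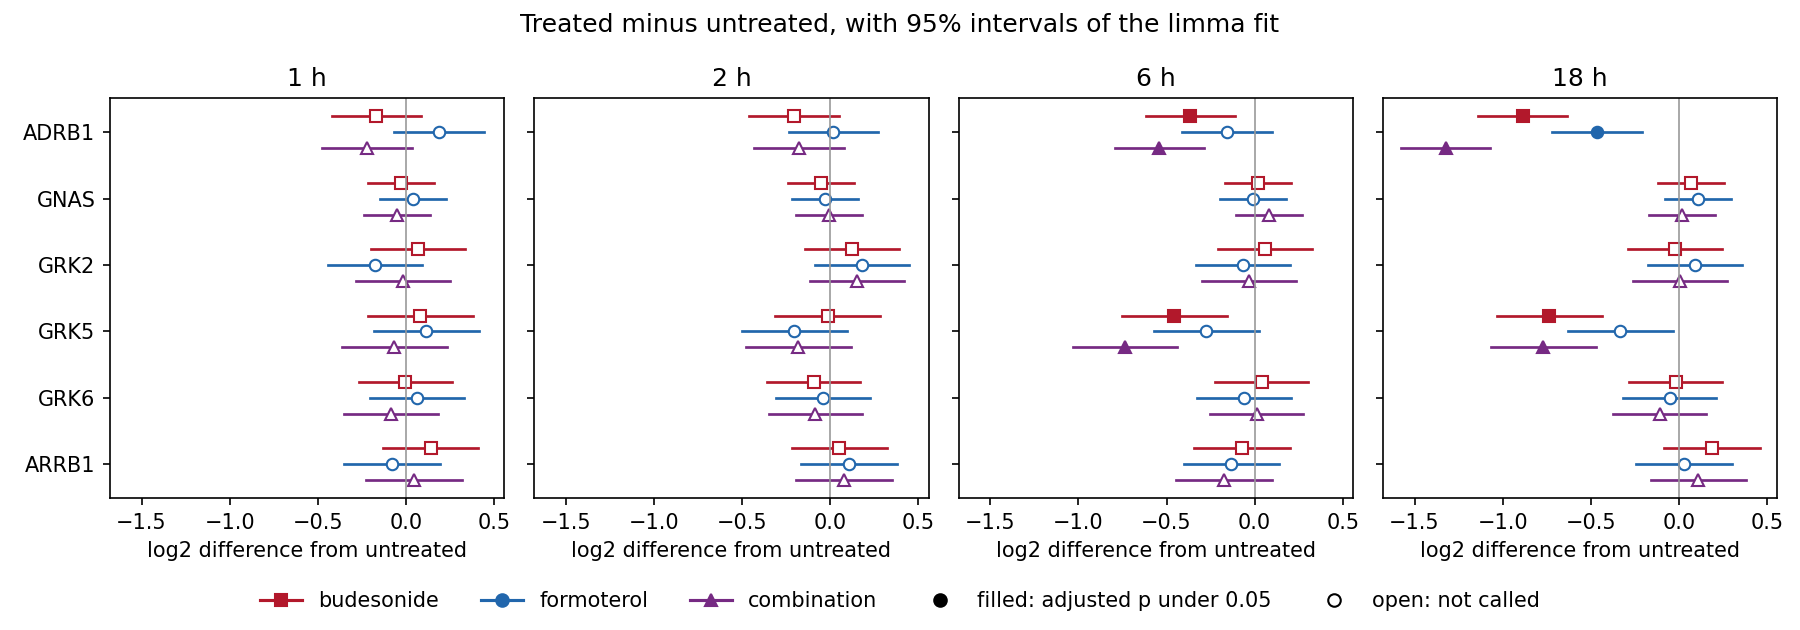
Log2 differences of the 6 members from untreated cells for budesonide, formoterol and the combination, 1 panel for each time, with bars for the 95% intervals of the limma fit and filled symbols for an adjusted p under 0.05. Filled symbols appear for ADRB1 and GRK5 at 6 and 18 h, down to -1.32 for ADRB1 with the combination at 18 h.

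Whether the effect of a treatment changed with time was tested with an F test over the 4 differences from untreated cells. The budesonide effect differed between times for ADRB1 (limma adjusted p = 0.00614) and GRK5 (limma adjusted p = 0.00741), 2 of 6 members against 12.7% of all genes. The combination effect differed between times for ADRB1 (limma adjusted p = 6.15e-07) and GRK5 (limma adjusted p = 0.00735), again 2 of 6, against 22.6% of genes. With the probe sets of each gene averaged, GRK5 with budesonide no longer passed (limma adjusted p = 0.171). For formoterol no member passed, against 4.51% of genes, and ADRB1 came nearest (limma adjusted p = 0.0832, unadjusted p = 0.00449). ADRB1 with formoterol passed with the replicate block (limma adjusted p = 0.0322), with the block within each time (limma adjusted p = 0.0162) and with probe sets averaged (limma adjusted p = 0.048). In untreated cells no member differed between 18 h and 1 h, against 0.364% of genes, and ADRB1 was 0.21 higher at 18 h with a 95% interval of -0.04 to 0.47 (limma adjusted p = 0.61).

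The combination was next compared with each drug alone, to ask what the second drug added. Against formoterol at 18 h, ADRB1 was lower with the combination by -0.86 ± 0.13, or 55.1% of the formoterol level (limma adjusted p = 1.9e-07). GRK5 was lower by -0.44 ± 0.15, or 74.0% of the formoterol level (limma adjusted p = 0.031). These were 2 of 6 members, against 17.6% of all genes. Against formoterol at 6 h the same 2 were called, against 13.4% of genes, with ADRB1 at -0.38 ± 0.13 (limma adjusted p = 0.0314) and GRK5 at -0.46 ± 0.15 (limma adjusted p = 0.0258).

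Of these 4 calls, that of ADRB1 at 18 h held without each compared array, with differences of -0.99 to -0.74. The GRK5 call at 18 h was lost without any 1 of formoterol replicates 1, 2 and 3 or combination replicates 1 and 3, with differences of -0.52 to -0.38 and an adjusted p of up to 0.0975. At 6 h the ADRB1 call was lost without formoterol replicate 1 or 3 or combination replicate 3 (differences of -0.46 to -0.26, adjusted p of up to 0.252). The GRK5 call at 6 h was lost without formoterol replicate 1 or 2 or combination replicate 2 or 3 (differences of -0.50 to -0.43, adjusted p of up to 0.076). At 1 and 2 h no member was called against formoterol, where 1.27% and 4.15% of genes were. ADRB1 at 1 h read 5.01, 4.78, 4.73 and 4.91 with the combination and 5.38, 5.15, 5.29 and 5.25 with formoterol, groups that did not overlap. The difference of -0.41 ± 0.13 had a limma adjusted p of 0.129 (unadjusted p = 0.00205), which became 0.039 with the replicate block within each time and 0.0255 with probe sets averaged. That block called 379 of all genes in this comparison, against 230 without it.

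Against budesonide no member was called at any time, where 1.47% of genes were called at 1 h, 4.38% at 2 h, 6.72% at 6 h and 0.651% at 18 h. ADRB1 at 18 h was lower with the combination than with budesonide by -0.44 ± 0.13, the arrays of the 2 groups did not overlap, and the limma adjusted p was 0.0973 (unadjusted p = 0.00103). With the replicate number as a block it was 0.0324, and with the block within each time 0.0151. Those blocks called 359 and 665 of all genes in that comparison, against 118 without a block. GRK5 at 18 h differed by -0.03 from budesonide, with a 95% interval of -0.33 to 0.26. At 6 h GRK5 was lower by -0.28, with a 95% interval of -0.58 to 0.02, and the arrays did not overlap (limma adjusted p = 0.334).

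The interaction is the combination effect less the sum of the budesonide and formoterol effects. It asks whether the drugs together differ from the sum of their separate effects on the log2 scale. No member passed, or had an unadjusted p under 0.05, at 1 h, against 0.171% of genes, at 2 h, against 0.59%, at 6 h, against 0.722%, or at 18 h, against 0.276%. For ADRB1 at 18 h the interaction was 0.03, with a 95% interval of -0.33 to 0.39 (limma adjusted p = 0.991). For GRK5 at 18 h it was 0.30, with an interval of -0.12 to 0.72 (limma adjusted p = 0.763). A log2 interaction of this width cannot be told from 0 and does not show that the effects add.

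The probe sets of a gene did not always move alike. ADRB1 has 2, and the one not used had a mean of 2.20 and differed with the combination at 18 h by -0.16, at 2.15 with the combination and 2.30 in untreated cells. GRK5 has 5, and the second highest, with a mean of 4.17, differed by -0.76 with the combination and -0.60 with budesonide at 18 h, close to the -0.77 and -0.74 of the one used. At 6 h that second probe set of GRK5 gave -0.50 with the combination but -0.05 with budesonide. The other 3 GRK5 probe sets had means of 2.70 to 3.24, around the lower quartile of all values, and differed by -0.12 to -0.08 with the combination at 18 h. When the probe sets of each gene were averaged instead of taking the highest, the budesonide calls at 6 h were lost, with ADRB1 at -0.11 (limma adjusted p = 0.402) and GRK5 at -0.09 (limma adjusted p = 0.48). The calls with the combination at 6 and 18 h and with budesonide at 18 h held but were smaller. At 18 h ADRB1 was then -0.74 with the combination and -0.51 with budesonide, and GRK5 was -0.37 with the combination and -0.26 with budesonide. At 6 h with the combination ADRB1 was -0.27 and GRK5 -0.29.

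**Figure D4:**
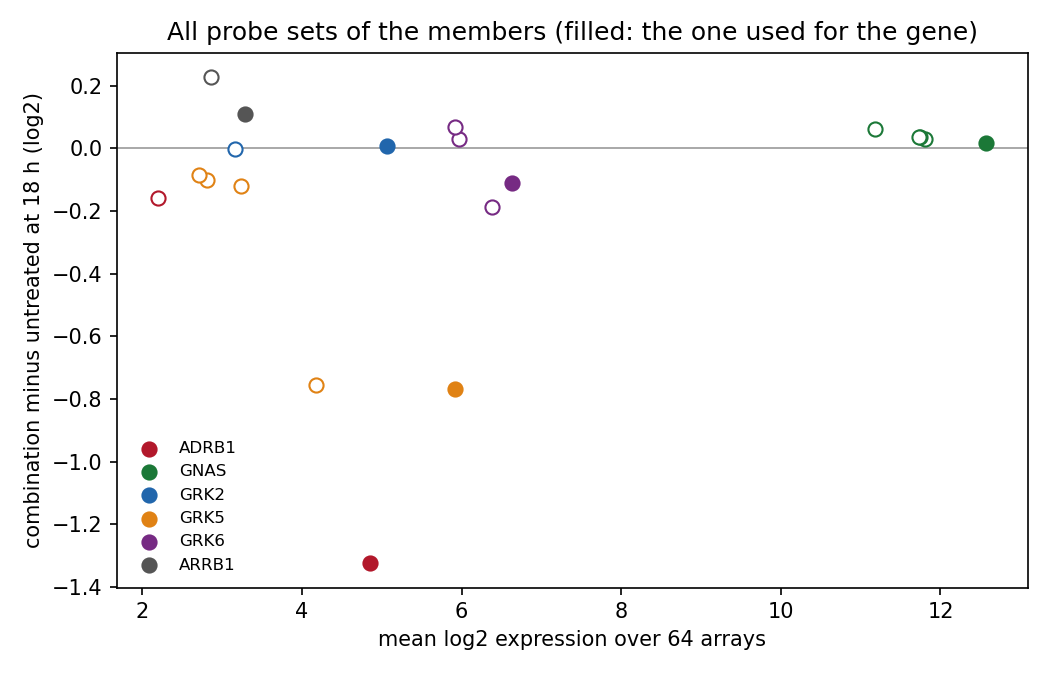
Combination minus untreated at 18 h on the log2 scale for every probe set of the 6 members against its mean log2 expression over 64 arrays, with filled symbols for the probe set used for the gene. The ADRB1 probe set used lies at -1.32 and its other one at -0.16, and 2 of the 5 GRK5 probe sets lie below -0.7.

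RNA quality was read from the control probe sets for beta-actin, as the signal at the 3' end less that at the 5' end, which is higher where RNA is more degraded or labelling stops short. Its mean was 1.10 for budesonide, 1.21 for formoterol, 1.25 for the combination and 1.13 for untreated arrays, and single arrays ran from 0.50 to 2.21. In 13 of the 16 groups the array with the highest such value was also the highest for GRK6, against 10 groups for GNAS, 9 for ADRB1, 7 for GRK5, 6 for GRK2 and 2 for ARRB1. The array of highest value was replicate 1 in every group at 1, 6 and 18 h and replicate 3 at 2 h. The 16 groups are therefore not separate trials, and these counts were not set against all genes. The part of RNA quality in the spread of the members within groups was not tested. Leaving out the replicate number with the highest value at each time kept the ADRB1 and GRK5 calls with the combination at 6 h and with budesonide and the combination at 18 h. The calls with budesonide at 6 h were then lost, with ADRB1 at -0.35 (limma adjusted p = 0.0899) and GRK5 at -0.49 (limma adjusted p = 0.0694).

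Across the 16 group means the profiles of ADRB1 and GRK5 had a Pearson correlation of 0.887, a description of groups that share arrays of the same cell line and are not independent. Of 10997 genes whose highest group mean reached the median, the 3 most like ADRB1 were FAXC at 0.949, SLC8A1 at 0.943 and RAB32 at 0.942. Those most like GRK5 were NMT2 at 0.975, FRMD4B at 0.964 and FAR1 at 0.961. With the combination at 18 h SLC8A1, which encodes a sodium-calcium exchanger, was at 3.82 against 6.33 in untreated cells, and NMT2, an N-myristoyltransferase, was at 8.35 against 9.31.

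The wider pathway was described with 4 lists of genes. Of 26 measured genes of G protein subunits and their chaperones, 1 was called higher and 7 lower with the combination at 18 h, 1 higher and 5 lower with budesonide, and none with formoterol, where the list medians were -0.10, -0.11 and 0.01 against medians of all genes of 0.03, 0.03 and 0.02. Over all genes 10.3% were called higher and 10.7% lower with the combination at 18 h, 8.56% and 9.78% with budesonide, and 0.469% and 0.64% with formoterol. GNA12, a G protein alpha subunit, differed by -0.49 ± 0.08 with the combination at 18 h (limma adjusted p = 2.26e-06). GNAI1, an inhibitory alpha subunit, was higher by 0.43 ± 0.06 (limma adjusted p = 4.68e-08). With formoterol at 6 h 2 were called higher and 1 lower, against 2.76% and 2.06% of all genes, and the gamma subunits GNG11 and GNG4 were both higher by 0.56.

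Of the 13 other adrenoceptors, receptor kinases and arrestins, 1 was called higher and 1 lower with the combination at 18 h, and the same numbers with budesonide, against 10.3% of all genes higher and 10.7% lower with the combination and 8.56% and 9.78% with budesonide. ADRA2A, an alpha-2 adrenoceptor, averaged 2.68 with the combination and 3.44 in untreated cells, a difference of -0.75 ± 0.15 at a level near the lower quartile (limma adjusted p = 8.52e-05). ADRA1B, an alpha-1 adrenoceptor, was higher by 0.37 ± 0.10 (limma adjusted p = 0.00587). GRK3, the kinase closest to GRK2, was higher with the combination at 6 h by 0.44 ± 0.11 (limma adjusted p = 0.00125), and at 18 h it was -0.20 and did not pass.

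Among 27 genes of receptor endocytosis and recycling none was called higher, and 6 were called lower with the combination and 5 with budesonide at 18 h, against none with formoterol. Over all genes 10.7% were called lower and 10.3% higher with the combination, and 9.78% lower and 8.56% higher with budesonide. With formoterol only 0.64% of all genes were called lower and 0.469% higher at 18 h. CLTB, a clathrin light chain, differed by -0.70 ± 0.10 with the combination at 18 h (limma adjusted p = 1.61e-07). PICALM, a clathrin assembly protein, differed by -0.62 ± 0.07 with the combination at 6 h (limma adjusted p = 4.13e-11). DNM1, a dynamin that pinches off vesicles, differed by -0.65 ± 0.18 with budesonide at 18 h (limma adjusted p = 0.00728).

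Of 10 genes of receptor ubiquitination, 2 were called higher and 2 lower with the combination at 18 h, and the same numbers with budesonide, where the shares over all genes were 10.3% higher and 10.7% lower with the combination and 8.56% and 9.78% with budesonide. NEDD4L, a ubiquitin ligase that also acts on sodium channels, averaged 6.90 with budesonide and 8.75 in untreated cells at 6 h, a difference of -1.85 ± 0.12 (limma adjusted p = 1.63e-19). NEDD4, the related ligase, averaged 8.66 with budesonide and 7.21 in untreated cells at 6 h, a difference of 1.45 ± 0.11 (limma adjusted p = 1.26e-16). By 18 h NEDD4 was at 0.06 with budesonide (limma adjusted p = 0.824) and -0.10 with the combination, and neither passed. At 2 h WWP2, another ligase of that family, was higher with formoterol by 0.56 ± 0.09 (limma adjusted p = 7.4e-06). These genes moved in both directions, and counts of so few genes are given without a test of the list.

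**Figure D5:**
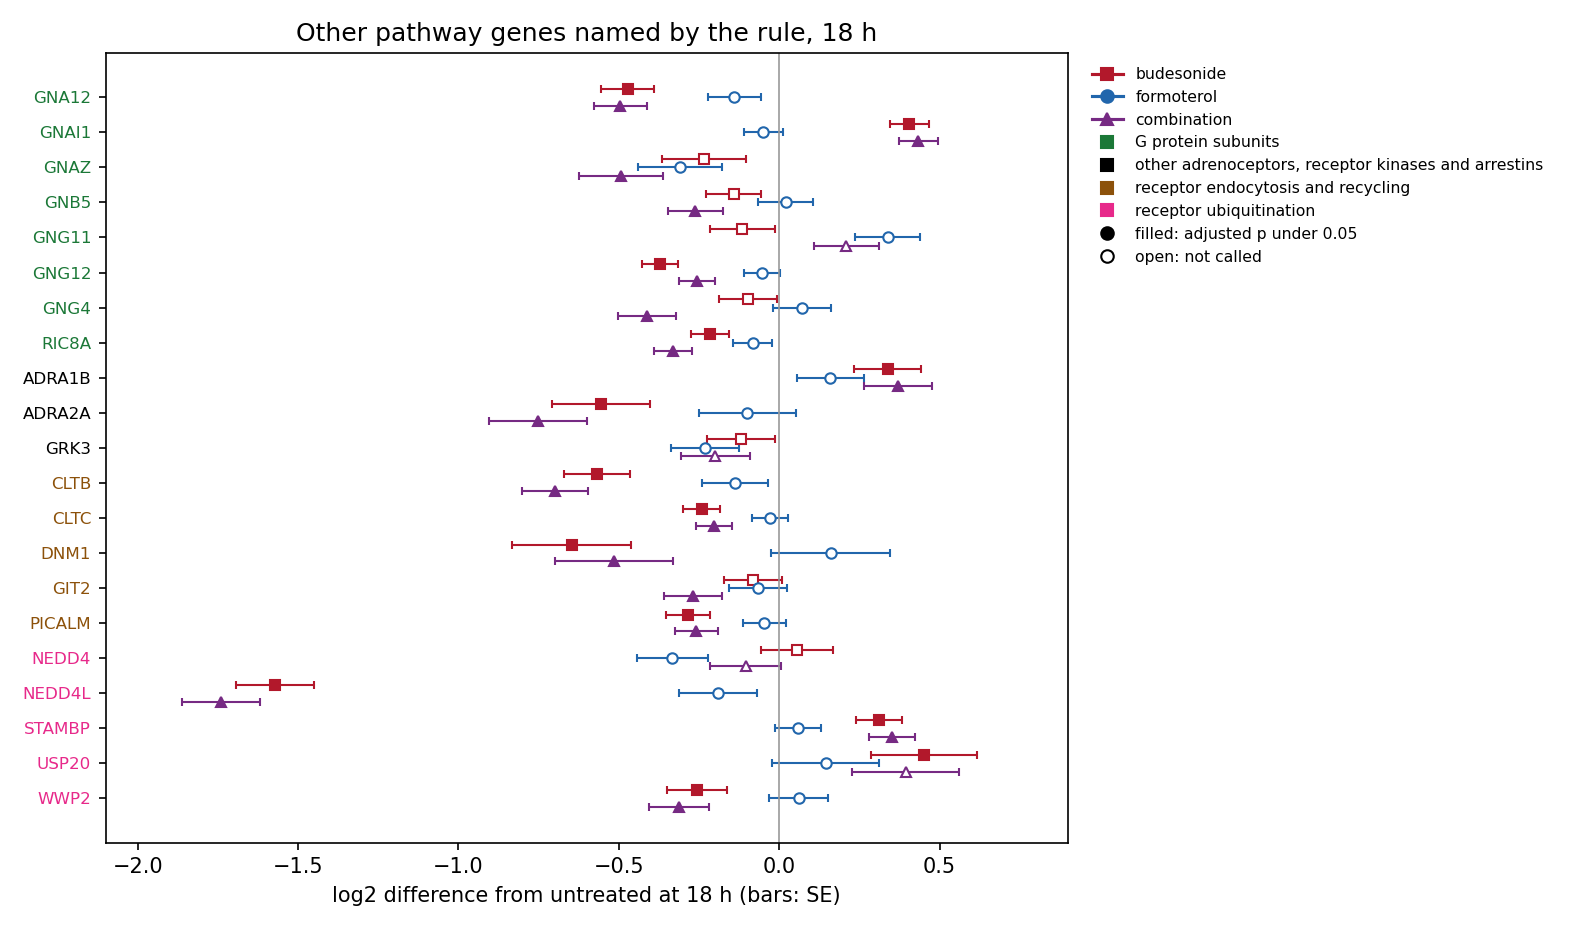
Log2 differences from untreated cells at 18 h for the pathway genes named by the rule, with bars for the SE, filled symbols for an adjusted p under 0.05 and label colours for the list each belongs to. NEDD4L lies farthest to the left for the combination, at -1.74, while GNAI1 lies on the right for budesonide and the combination.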

How the data were processed

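RNA from 64 samples was hybridised to Affymetrix arrays. The authors deposited log2 expression values, 1 for each probe set, which RMA produced, per the submitters' processing notes. No version of RMA is given in the sources used here. Precision is limited by the number of arrays. There were 49395 probe sets: 44994 had 1 gene symbol, 1832 had several and 2569 had none, and the last 2 kinds were left out. Symbols were updated through gene identifiers, and the highest probe set of each gene gave 18132 genes.

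A model with 16 group means (48 residual degrees of freedom) and an intensity trend was fitted to all genes in R 4.3.3 by limma 3.58.1. Tables were read by data.table, version 1.17.8. The model gave 25 two-sided contrasts and 3 F tests, adjusted by Benjamini-Hochberg over all genes in each and called under 0.05. Figures used matplotlib 3.10.9 and numpy 2.4.6 in Python 3.11.15. The fit was tested on simulated data with independent noise on each array, which lacked any deviation shared by same-numbered arrays. P-values measure the spread between determinations of 1 cell line. The members and lists were chosen with earlier results of these data known.

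Full statistics are given for called members. Up to 4 called genes per list and treatment were eligible by size, from which examples are printed, and the 3 genes most like each called member. Promoters came from RefSeq, and 6 members had 1 or more windows, ARRB1 none. GNG10 and KRT17 had no single-symbol probe set and were not analysed here. Same-numbered arrays deviated together, with every pair over 0.1, in 12 of the 21 comparisons of 2 groups (mean correlations of 0.11 to 0.44). The numbers come from the titles. Alternatives were another normalization, centring, no trend, a filter on dim genes, the mean of probe sets, replicate blocks, compared arrays alone, and arrays left out.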

Additional observations from a re-analysis of the deposited data

Results flagged for a closer look

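Of 96 groups of 4 arrays tested, 6 members in 16 groups, 3 had an array farther from the others than the 95% critical value of Dixon's test allows, and chance flags about 1 in 20 groups. GRK2 with the combination at 18 h was 4.73 in replicate 3, against 5.07 to 5.11 on the other arrays. GRK2 with the combination at 1 h was 4.92 in replicate 3, against 5.15 to 5.17 on the others. GRK6 in untreated cells at 6 h was 6.96 in replicate 1, against 6.44 to 6.53 on the others, and that array also had the highest beta-actin 3' minus 5' value, 2.21.

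The effect of a treatment differed between times for ADRB1 with budesonide (limma adjusted p = 0.00614) and with the combination (limma adjusted p = 6.15e-07), and for GRK5 with budesonide (limma adjusted p = 0.00741) and with the combination (limma adjusted p = 0.00735).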

How the results depend on the processing

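No difference of a called member changed sign under any alternative. ADRB1 and GRK5 stayed called with the combination at 6 h and with budesonide and the combination at 18 h under each alternative in which they were tested, with smaller differences where probe sets were averaged. The counts of calls over the 4 times were 4 for budesonide, 1 for formoterol, 4 for the combination, 0 against budesonide and 4 against formoterol, and 4 for the F tests. Leaving out single arrays gave 2 to 4, 0 to 1, 4 to 4, 0 to 0 and 2 to 4, and 4 to 5 for the F tests. Leaving out dim genes removed ADRB1 and ARRB1 from the test, which left 2 calls for budesonide, 0 for formoterol, 2 for the combination, 2 against formoterol and 2 for the F tests. The mean of all probe sets gave 2 calls for budesonide and 1 against budesonide, that of GRK5 at 6 h (limma adjusted p = 0.0437). It also called ARRB1 with the combination at 6 h, at -0.32 (limma adjusted p = 0.0229), and ADRB1 against formoterol at 1 h (0.0255), and of the F tests it lost GRK5 with budesonide (0.171) and gained ADRB1 with formoterol (0.048). Quantile normalization repeated over all probe sets and the compared arrays alone each left 0 calls for formoterol. The compared arrays alone also lost ADRB1 with budesonide at 6 h (limma adjusted p = 0.111) and against formoterol at 6 h (0.0812). Without the replicate number of highest beta-actin 3' minus 5' signal at each time, 2 calls were left for budesonide and 1 against formoterol. The cause of these shifts was not tested, and some alternatives also had fewer genes or arrays.

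With the replicate block, over all arrays or within each time, 1 member was called against budesonide, ADRB1 at 18 h. Without a block 118 of all genes were called in that comparison, against 359 with the block over all arrays and 665 with the block within each time. The F test for ADRB1 with formoterol then passed (limma adjusted p = 0.0322 and 0.0162). Within each time the block added ADRB1 against formoterol at 1 h, and neither block lost a call. Interactions and untreated times gave 0 calls in every setting. Unadjusted, the lowest interaction p of a member was 0.159, for GRK5, and ADRB1 had the lowest for untreated times, 0.0963.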
